A study of Mus musculus with 18 samples.

Results

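Mouse embryonic fibroblasts that lacked S6K1 and carried an activated RAS oncogene (KO RAS) were compared with normal fibroblasts that carried the empty vector (WT EV), to see which parts of the RAS response were reached without S6K1. The members were the 3 KO RAS and the 3 WT EV libraries of the S6K1 series, 6 of 18 RNA-seq libraries in all. S6K1 is ribosomal protein S6 kinase 1, the product of Rps6kb1 and a kinase downstream of mTORC1. The labels give the KO RAS cells as S6K1 KO with constitutive RAS expression, and the WT EV cells as S6K1 WT with an empty vector. All were fibroblasts of mid-gestation embryos, on an inbred C57BL/6 background, transduced with a retrovirus and selected with a drug. Wild-type and knockout embryos came as littermates from 3 litters. The labels give replicate numbers but not the mother, so libraries of equal number were taken as littermates by inference. "Litter" below means replicate number. A further group of 3 libraries, wild-type cells with RAS (WT RAS), gave the test of how KO RAS cells differed from RAS cells with S6K1. A separate series of 9 libraries, in which RAS was expressed in wild-type cells and in cells without both S6K1 and S6K2 (DKO RAS), was used only beside these. There was no S6K1 KO library with an empty vector, so in KO RAS against WT EV the effect of RAS and that of the lost kinase cannot be told apart, and the values are net changes.

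Oncogenic RAS drives the RAF-MEK-ERK cascade, and sustained ERK output in primary fibroblasts is known to end in senescence, a lasting proliferation arrest held by CDK inhibitors such as the products of Cdkn2a, Cdkn2b and Cdkn1a. Senescent cells secrete growth factors, cytokines, chemokines and proteases, together called the senescence-associated secretory phenotype, and change the matrix they lay down. S6K1 phosphorylates ribosomal protein S6 and other substrates when nutrients and growth factors activate mTORC1, and it is studied as a regulator of ageing and of the inflammatory part of that secretome.

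Library totals in the S6K1 series ran from 10990018 to 14402442 counts. Levels are given below as CPM (counts scaled to library size after TMM normalization), which are not divided by gene length, so a level is compared only with the same gene in other libraries. "Called" means a Benjamini-Hochberg adjusted p under 0.05 in edgeR's quasi-likelihood test over the 14036 genes tested. The spread was estimated over 9 libraries, 3 of each group. Rps6kb1 was 83.2, 102.5 and 93.6 CPM in the 3 WT EV libraries and 23.6, 31.3 and 37.0 CPM in KO RAS, which is a log2 difference of -1.60 (SE 0.17, adjusted p = 0.000441). Every KO RAS library lay below every WT EV library, and reads of the gene remained in all 3. Rps6kb2, which encodes S6K2, did not differ detectably between the groups (log2 fold change -0.0032, 95% interval -0.31 to 0.30). Hras, whose counts take in reads of the vector as far as they map to the mouse gene, was 72.7, 50.8 and 61.9 CPM in WT EV and 141.2, 125.7 and 116.6 CPM in KO RAS (log2 fold change 1.05, SE 0.14, adjusted p = 0.00135).

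KO RAS replicate 3 stood apart from the other libraries in sex. Xist, the RNA that coats the inactive X chromosome, was 385.3 CPM in it and at most 0.241 CPM in the other 8 libraries of the series, and the Y-linked Ddx3y was at 0 in it against 64.7 to 124.1 CPM in the others. Counts of called genes without that library are given for the whole comparison and for each gene list. The fibroblasts were also not pure. The summed level of 20 macrophage markers (among them Csf1r, Adgre1, Cd68 and Lyz2) was 3639, 2786 and 734.8 CPM in the WT EV libraries and 954.8, 740.7 and 270.0 CPM in KO RAS, and none of the 20 was at or under 3 reads throughout a group. The macrophage signal was thus lower in KO RAS in each litter, and its values stand again beside the inflammatory genes. The sum of 10 fibroblast markers ran from 30370 to 33450 CPM in WT EV and from 14630 to 15620 CPM in KO RAS, with collagen genes carrying much of the list. In such bulk samples fewer cells of a type and less RNA per cell cannot be told apart.

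Of the 14036 genes, 2542 were called between KO RAS and WT EV (18.1%), with 1341 higher in KO RAS (9.55%) and 1201 lower (8.56%). At least 2-fold changes were seen in 785 of the genes called higher and 711 of those called lower. In 2531 of the called genes the 3 KO RAS libraries did not overlap the 3 WT EV libraries, against 34.9% of all genes tested. Without KO RAS replicate 3 the count was 2139 genes, without WT EV replicate 2 it was 1499 and without KO RAS replicate 2 it was 1325. With the litter (the replicate number) as a block the count was 5766 genes (41.1%), which included all 2542; 20.7% of the tested genes were then higher and 20.4% lower.

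The CDK4/6 inhibitor genes Cdkn2a and Cdkn2b were higher in KO RAS cells. Of 25 senescence regulators tested, 7 were called higher and 4 lower (6 and 3 without KO RAS replicate 3), with a median log2 fold change of 0.01 against a median near 0 for all genes. Cdkn2a, on chromosome 4 at 89274473 to 89294619 (GRCm38), encodes p16 and ARF, which restrain CDK4/6 and MDM2. It was 137.5, 103.2 and 137.2 CPM in WT EV and 349.0, 258.9 and 240.7 CPM in KO RAS (log2 fold change 1.17, SE 0.18, adjusted p = 0.00267). Its neighbour Cdkn2b, the p15 inhibitor of CDK4/6, was 74.5, 55.7 and 79.3 CPM in WT EV and 176.2, 140.0 and 135.3 CPM in KO RAS (1.11, SE 0.17, adjusted p = 0.00263). In both genes every KO RAS library was above every WT EV library, and the values of the 3 WT RAS libraries (221.2 to 285.9 CPM for Cdkn2a, 108.1 to 138.2 CPM for Cdkn2b) overlapped those of KO RAS. Against WT RAS the log2 difference was 0.16 for Cdkn2a (95% interval -0.24 to 0.57) and 0.32 for Cdkn2b (-0.06 to 0.71).

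Of the other 4 CDK inhibitor genes 2 were lower and 2 were not called. Cdkn1a, the p21 inhibitor and a p53 target, was 551.2, 542.1 and 612.8 CPM in WT EV and 755.1, 647.4 and 635.5 CPM in KO RAS. The groups did not overlap, but the log2 fold change of 0.26 (SE 0.12) was not called (adjusted p = 0.17). Cdkn1b, the p27 inhibitor, was lower in KO RAS (log2 fold change -1.02, adjusted p = 0.00696), as was Cdkn2c, the p18 inhibitor of CDK4/6 (-1.003, adjusted p = 0.0172; 0.063 without KO RAS replicate 2). Lmnb1, the lamin B1 gene whose transcript is known to decline in senescence, was 29.2, 30.9 and 20.9 CPM in WT EV and 22.5, 16.7 and 21.3 CPM in KO RAS. These ranges overlapped, and the log2 fold change of -0.42 was not called (adjusted p = 0.219). The chromatin architecture genes Hmga1 (log2 fold change 2.97, adjusted p = 0.000475) and Hmga2 (1.24, adjusted p = 0.000352) were higher, and so were Ccnd1, encoding cyclin D1 (1.25, adjusted p = 0.00167), and Mdm2, encoding the ubiquitin ligase of p53 (1.31, adjusted p = 0.000539). Rb1, the retinoblastoma gene, whose product restrains E2F factors, was called higher as well (0.62, SE 0.17, adjusted p = 0.0363), but not without any 1 of the 6 libraries (adjusted p from 0.0545 to 0.123). With the litter as a block the counts of this list were 9 higher (36.0%, against 20.7% of all genes) and 8 lower (32.0%, against 20.4%). The 4 lower calls became 2 without WT EV replicate 2 and 1 without KO RAS replicate 2. Of 26 p53 target genes, 5 were called higher, among them the death genes Perp (2.998, adjusted p = 0.00431) and Pmaip1 (1.23, adjusted p = 0.0028) and the cyclin G gene Ccng1 (0.57, adjusted p = 0.0167), and 1, the death receptor gene Fas, was lower (-0.998, adjusted p = 0.0358). The p53 target calls were thus 19.2% higher and 3.85% lower, against 9.55% and 8.56% of all genes. The block gave 11 higher (42.3%, against 20.7%) and 4 lower (15.4%, against 20.4%). Without KO RAS replicate 3 the counts were 6 and 1. Ccng1 was not called without WT EV replicate 1 or 2 (adjusted p = 0.0616 and 0.0606), nor was Fas without WT EV replicate 1 or 3 or KO RAS replicate 1 or 2 (adjusted p from 0.0598 to 0.128).

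**Figure D1:**
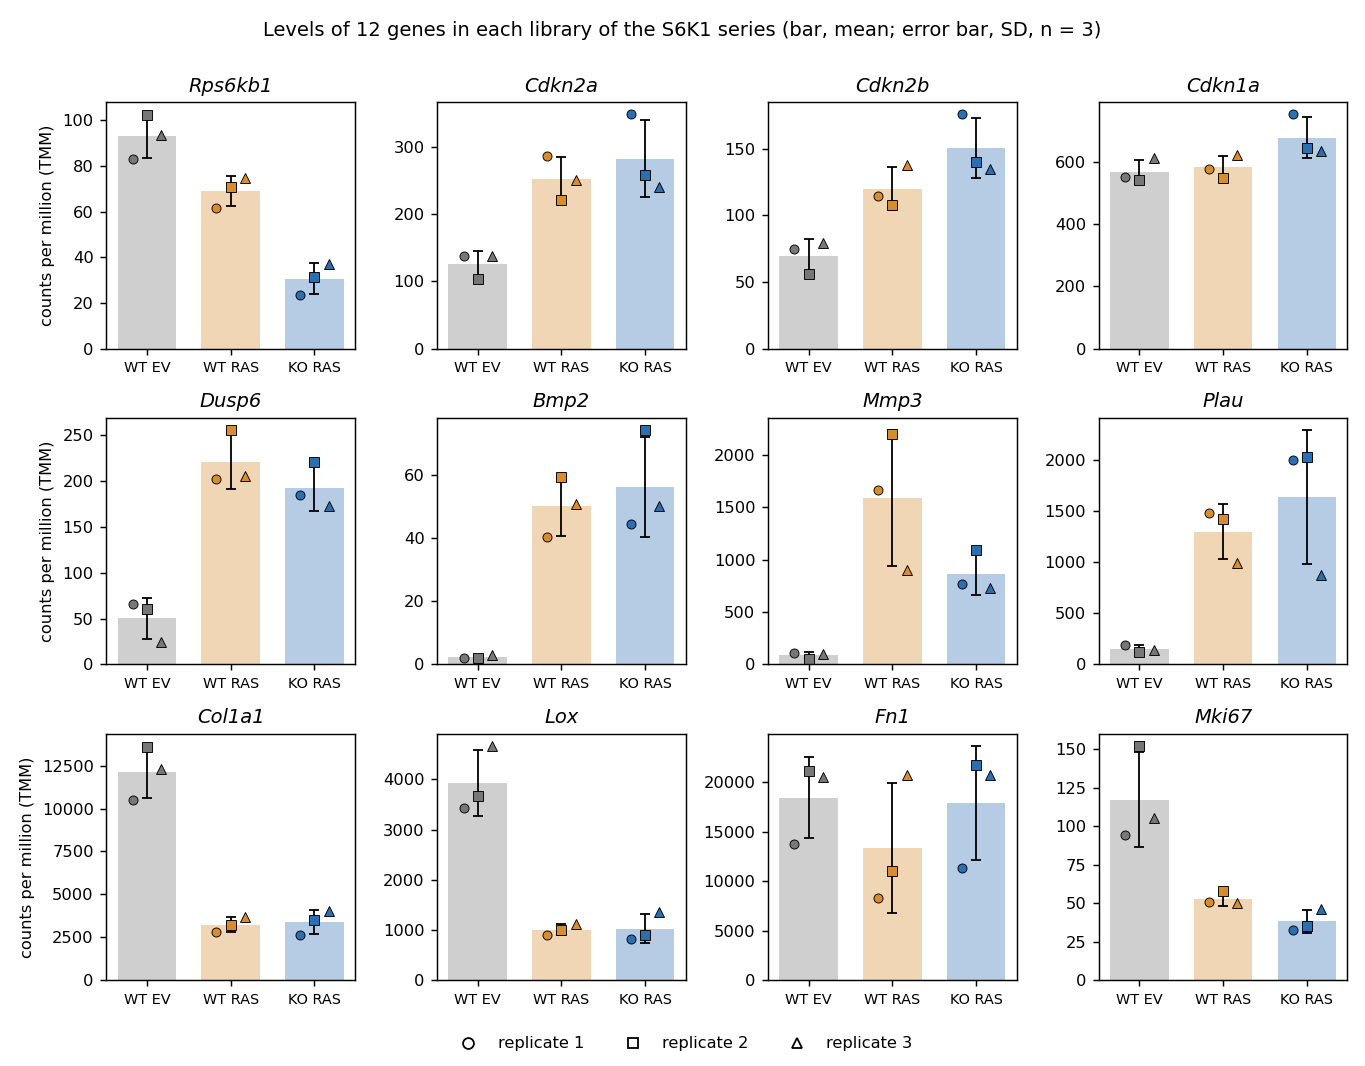
Levels of 12 genes in CPM in each library of the S6K1 series, with the group on the horizontal axis; bars are means, error bars SD (n = 3) and marker shapes replicate numbers. Cdkn2a is 103.2 to 137.5 CPM in WT EV and 240.7 to 349.0 CPM in KO RAS, and Col1a1 and Lox are lower in all RAS libraries, with and without S6K1, than in any WT EV library.

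Targets of ERK were higher in KO RAS cells than in WT EV. Of 26 genes of ERK signalling output, 19 were called higher in KO RAS than in WT EV (73.1%, against 9.55% of all genes). The 2 called lower made 7.69%, against 8.56%. The median log2 fold change was 1.17, and the counts without KO RAS replicate 3 were also 19 and 2. The phosphatase gene Dusp6, a feedback inhibitor of ERK, was 66.3, 60.2 and 24.6 CPM in WT EV and 184.5, 221.4 and 173.2 CPM in KO RAS (log2 fold change 1.94, SE 0.32, adjusted p = 0.00341). Dusp5, encoding a nuclear ERK phosphatase, had a log2 fold change of 3.19 (adjusted p = 0.0012) and Spry4, encoding a receptor tyrosine kinase inhibitor, 2.28 (adjusted p = 0.000492). The transcription factor genes Etv4 (1.89, adjusted p = 0.000591) and Fosl1 (1.94, adjusted p = 0.00345) and the receptor gene Epha2 (2.19, adjusted p = 0.000852) were higher too. Epha4 (-1.80, adjusted p = 0.00777) and Spry1 (-1.12, adjusted p = 0.0174; 0.064 without WT EV replicate 2) were the members that were lower. In WT RAS against the same WT EV libraries, 17 members were called higher and 1 lower, with a median of 1.06; over all genes 1859 were called there (13.2%), 1004 higher (7.15%) and 855 lower (6.09%). Between KO RAS and WT RAS no member was called, 1 of 26 had an unadjusted p under 0.05, and the median difference was 0.05.

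Many genes of secreted growth factors were higher. Of 47 tested genes of this group, 21 were called higher in KO RAS than in WT EV (44.7%, against 9.55% of all genes) and 7 lower (14.9%, against 8.56%). The median log2 fold change was 0.51, and the counts without KO RAS replicate 3 were 18 and 7. Among ligands of the EGF receptor family 5 of 6 were higher. Areg, encoding amphiregulin, was 1.81, 0.522 and 0.366 CPM in WT EV and 87.0, 77.6 and 54.6 CPM in KO RAS (log2 fold change 6.27, SE 0.44, adjusted p = 0.000103). Hbegf (2.67, adjusted p = 0.00329), Tgfa (2.94, adjusted p = 0.00627) and Ereg (1.20, adjusted p = 0.0358) were also called. Bmp2, a TGF-beta superfamily ligand, was 1.88, 2.16 and 3.02 CPM in WT EV and 44.5, 74.5 and 50.4 CPM in KO RAS (4.59, SE 0.28, adjusted p = 0.000103). Pgf, the placental growth factor, had a log2 fold change of 3.24 (adjusted p = 0.000313), and Inhba, the activin A subunit, 0.69 (adjusted p = 0.015). In each of these genes every KO RAS library was above every WT EV library. Ereg and Inhba were not called without WT EV replicate 2 or 3 or KO RAS replicate 1 or 2 (adjusted p from 0.0909 to 0.127 for Ereg and from 0.0503 to 0.0609 for Inhba).

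Growth factors that were lower in KO RAS than in WT EV belonged mainly to the IGF axis and to lymphatic and TGF-beta ligands. Igf1 was 124.0, 140.6 and 66.5 CPM in WT EV and 24.4, 11.95 and 24.8 CPM in KO RAS (log2 fold change -2.44, SE 0.42, adjusted p = 0.00413). Vegfd, a lymphatic growth factor (-2.09, adjusted p = 0.000305), Tgfb2 (-2.41, adjusted p = 0.0148) and the IGF-binding protein gene Igfbp5 (-2.06, adjusted p = 0.0129) were the other leading ones; without KO RAS replicate 2 Tgfb2 and Igfbp5 were not called (adjusted p = 0.067 and 0.0529), nor was Tgfb2 without KO RAS replicate 1 (0.0509). With the block 26 genes of the group were higher (55.3%, against 20.7% of all genes) and 14 lower (29.8%, against 20.4%). Without WT EV replicate 2 only 13 were called higher, and without KO RAS replicate 2 only 3 lower. Fgf2, a broad fibroblast mitogen, was 52.0, 50.7 and 84.3 CPM in WT EV, 66.0, 49.0 and 144.7 CPM in WT RAS and 202.3, 162.3 and 183.8 CPM in KO RAS. The KO RAS libraries lay above all others of the series. Its log2 difference from WT EV was 1.55 (adjusted p = 0.0208; from 0.0503 to 0.0785 without WT EV replicate 1 or 2 or KO RAS replicate 1 or 2); that from WT RAS was 1.08 (95% interval 0.25 to 1.91) and was called with the block only (adjusted p = 0.0132).

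Metalloproteinase genes were called in both directions, 4 of 15 higher and 4 lower. Over all genes the shares were 9.55% higher and 8.56% lower. Those metalloproteinase genes that were higher had the larger changes. Of 44 proteases and inhibitors tested, 9 were called higher in KO RAS than in WT EV and 12 lower, with a median log2 fold change of -0.67, so the list as a whole did not move one way; with the block 16 were higher and 22 lower, and without KO RAS replicate 3 the counts were 9 and 13. Mmp3 and Mmp10 encode the stromelysins and Mmp1a a mouse interstitial collagenase, and their genes lie side by side on chromosome 9. Mmp3 was 108.1, 53.3 and 96.3 CPM in WT EV and 772.2, 1097 and 727.0 CPM in KO RAS (log2 fold change 3.33, SE 0.38, adjusted p = 0.000568). Mmp10 was 6.33, 2.83 and 2.29 CPM in WT EV and 512.3, 479.3 and 234.2 CPM in KO RAS (6.72, SE 0.52, adjusted p = 0.000103). Mmp1a had 1, 2 and 2 reads in the WT EV libraries and 39.4, 56.9 and 16.1 CPM in KO RAS; its read ratio was 294 (95% interval 126 to 906, counting error only). Each of these genes was far above WT EV in all 3 KO RAS libraries. Mmp1b, a near copy of Mmp1a with which it may share reads, was at most 0.626 CPM in WT EV and 9.91, 13.2 and 4.67 CPM in KO RAS. The metalloproteinases called lower were Mmp16 (-1.53, adjusted p = 0.0029), Mmp23 (-1.09, adjusted p = 0.00252), Mmp11 (-0.89, adjusted p = 0.00645) and Mmp14, a membrane-bound collagenase (-0.79, adjusted p = 0.00595). Mmp13, the rodent collagenase 3 gene of the same cluster, was not called (51.1, 47.2 and 156.9 CPM in WT EV, 39.8, 47.3 and 71.8 CPM in KO RAS; adjusted p = 0.336).

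The start regions of these 4 clustered genes are shown because 3 of them were called and 1 was not, while all hold the same motif. Each window runs from 250 bases before to 50 after the annotated start (RefSeq, GRCm38.p6, plus strand, 5′ to 3′), and capitals mark TGANTCA, the recognition motif of AP-1 (FOS-JUN) factors, searched on both strands. The windows are chr9:7463891-7464190 for Mmp1a, chr9:7445572-7445871 for Mmp3, chr9:7502092-7502391 for Mmp10 and chr9:7272264-7272563 for Mmp13.
Mmp1a: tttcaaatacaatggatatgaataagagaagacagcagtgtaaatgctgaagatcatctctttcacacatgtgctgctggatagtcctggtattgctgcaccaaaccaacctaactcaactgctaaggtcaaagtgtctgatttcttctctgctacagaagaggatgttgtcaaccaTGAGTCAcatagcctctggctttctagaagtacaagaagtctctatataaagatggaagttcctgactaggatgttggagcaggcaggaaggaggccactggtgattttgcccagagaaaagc
Mmp3: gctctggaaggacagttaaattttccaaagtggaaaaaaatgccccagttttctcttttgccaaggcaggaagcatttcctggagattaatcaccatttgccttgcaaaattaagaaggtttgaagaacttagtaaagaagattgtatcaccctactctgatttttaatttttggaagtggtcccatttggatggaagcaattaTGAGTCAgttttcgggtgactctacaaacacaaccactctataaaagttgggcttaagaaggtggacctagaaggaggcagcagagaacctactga
Mmp10: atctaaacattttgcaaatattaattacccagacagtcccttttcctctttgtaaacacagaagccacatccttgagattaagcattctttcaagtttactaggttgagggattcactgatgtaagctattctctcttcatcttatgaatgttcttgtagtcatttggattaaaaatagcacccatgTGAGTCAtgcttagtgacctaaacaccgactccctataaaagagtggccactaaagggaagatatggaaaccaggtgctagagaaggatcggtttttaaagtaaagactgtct
Mmp13: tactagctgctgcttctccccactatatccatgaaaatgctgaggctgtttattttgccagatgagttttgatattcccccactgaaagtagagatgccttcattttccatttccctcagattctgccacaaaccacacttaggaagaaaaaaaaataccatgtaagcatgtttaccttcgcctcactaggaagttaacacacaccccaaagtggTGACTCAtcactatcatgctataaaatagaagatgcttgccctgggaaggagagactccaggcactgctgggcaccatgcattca
The motif began 73, 46, 63 and 35 bases before the start, in that order. It was found in 5 of 12 metalloproteinase promoters of the table (41.7%), in 7.93% of all 27025 promoters of this length and in 5.09% of those of the 10391 tested genes that had one. Among the latter it was in 9.35% of the 984 called higher and in 6.44% of the 901 called lower. These matches describe the letters in the windows and say nothing of what bound there.

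Plau, the urokinase plasminogen activator gene, was 191.3, 120.3 and 140.1 CPM in WT EV and 2000, 2026 and 875.4 CPM in KO RAS (log2 fold change 3.44, SE 0.35, adjusted p = 0.000348). Serpinb2, an inhibitor of urokinase, was at most 0.278 CPM in WT EV and 23.4, 32.3 and 14.3 CPM in KO RAS (6.93, adjusted p = 0.000118). KO RAS cells thus held more of both the protease and the inhibitor transcript. Timp1, a metalloproteinase inhibitor, was not called (0.71, SE 0.26, adjusted p = 0.0951). Of 9 ADAM and ADAMTS genes tested 5 were lower and 1 higher, against 8.56% lower and 9.55% higher of all genes. Among the lower were Adamts5, an aggrecanase (-2.55, adjusted p = 0.00191), and the procollagen peptidase gene Adamts2 (-1.62, adjusted p = 0.00115). Htra3, a secreted serine protease (-3.25, adjusted p = 0.000541), and the inhibitor gene Timp3 (-1.79, adjusted p = 0.0038) were lower as well. Against WT RAS the median difference of the 44 genes was -0.02 and none was called; Mmp3 differed by -0.88 (95% interval -1.67 to -0.09; block-adjusted p = 0.187) and Plau by 0.34 (-0.39 to 1.06).

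Collagen and other matrix genes were mostly lower. Of 23 collagen genes tested, 14 were called lower in KO RAS than in WT EV (60.9%, against 8.56% of all genes). Only 1 was called higher (4.35%, against 9.55%), and the median log2 fold change was -1.58. Col1a1, the main chain of fibrillar collagen I, was 10520, 13580 and 12280 CPM in WT EV and 2627, 3522 and 4032 CPM in KO RAS (-1.84, SE 0.20, adjusted p = 0.000441). Col3a1 (-1.61, adjusted p = 0.0165; 0.0722 without KO RAS replicate 2), the fibril-associated Col12a1 (-2.38, adjusted p = 0.00293) and Col14a1 (-2.24, adjusted p = 0.00072), and Col8a2 (-4.42, adjusted p = 0.0026) were lower too. Col18a1, a basement membrane collagen from which endostatin is cut, was the member called higher (44.2, 38.1 and 55.2 CPM in WT EV, 191.6, 278.3 and 169.8 CPM in KO RAS; 2.22, SE 0.22, adjusted p = 0.000313). In WT RAS against WT EV the counts were also 14 lower and 1 higher, with a median of -1.24, and KO RAS and WT RAS differed by a median of 0.07 with no member called. Without KO RAS replicate 3 the counts were 14 lower and 1 higher.

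Among 64 other matrix genes 32 were called lower and 4 higher (31 and 3 without KO RAS replicate 3), with a median log2 fold change of -0.77. Over all genes 8.56% were called lower and 9.55% higher, so the 4 higher (6.25%) made a smaller share than in all genes. The summed level of the list overlapped between groups, at 80400, 91030 and 93210 CPM in WT EV and 64300, 83600 and 80350 CPM in KO RAS. Fmod, encoding the collagen-binding proteoglycan fibromodulin, was 17.4, 20.4 and 54.8 CPM in WT EV and 0.0909, 0.153 and 0.417 CPM in KO RAS (-7.05, SE 0.69, adjusted p = 0.000302). Its small leucine-rich relatives Aspn (-4.35, adjusted p = 0.000103) and Prelp (-4.99, adjusted p = 0.00233), the CCN family gene Ccn5 (-5.05, adjusted p = 0.000389) and Abi3bp (-5.02, adjusted p = 0.00226) stood with it among the lowest log2 fold changes of the whole comparison. Lox, the lysyl oxidase that crosslinks collagen and elastin, was 3433, 3658 and 4669 CPM in WT EV and 811.0, 906.4 and 1351 CPM in KO RAS (-1.94, SE 0.22, adjusted p = 0.000519). Fn1, encoding fibronectin, did not move detectably (-0.04, SE 0.37), nor did Dcn, encoding decorin (0.29, SE 0.26, adjusted p = 0.499). The genes called higher were the secreted phosphoprotein Spp1 (1.39, adjusted p = 0.00946), the hyaluronan synthase Has2 (1.10, adjusted p = 0.0136), the fibulin Efemp1 (1.14, adjusted p = 0.0435) and the matrilin Matn2 (0.65, adjusted p = 0.025); the count of 4 was 10 with the block, 2 without WT EV replicate 1, KO RAS replicate 1 or KO RAS replicate 2, and 1 without WT EV replicate 2. Of these, Spp1 was called with each single library left out, and Efemp1 was not called without any 1 of 5 of the libraries (adjusted p from 0.0539 to 0.14).

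Contractile genes were lower as well, in part. Of 16 genes tested, 10 were called lower (62.5%, against 8.56% of all genes) and 1 higher (6.25%, against 9.55%). Without KO RAS replicate 3 the counts were 8 and 1, and the median log2 fold change was -0.84 with all libraries. The summed level of the list overlapped between groups, at 15010, 12650 and 12380 CPM in WT EV and 14830, 11660 and 11060 CPM in KO RAS. Mylk, the myosin light chain kinase gene (-2.73, adjusted p = 0.00339), Actg2 and Myh11, encoding smooth muscle actin and myosin (-2.04 and -1.95, adjusted p = 0.00294 and 0.00454), and Itga11, a collagen-binding integrin (-3.23, adjusted p = 0.00955), led the list; Itga11 was at an adjusted p of 0.0502 without KO RAS replicate 2. Acta2, the smooth muscle actin gene used as a myofibroblast marker, was 4666, 3882 and 3470 CPM in WT EV and 3080, 2239 and 1972 CPM in KO RAS (-0.72, SE 0.19, adjusted p = 0.0302; from 0.07 to 0.11 without WT EV replicate 1 or 2 or KO RAS replicate 2 or 3). Tpm1, encoding tropomyosin 1, was the member called higher (0.63, adjusted p = 0.0213), and it was not called without KO RAS replicate 1 or WT EV replicate 2 or 3 (adjusted p from 0.0642 to 0.0823). Against WT RAS the median difference of the group was 0.13, with no member at an unadjusted p under 0.05.

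**Figure D2:**
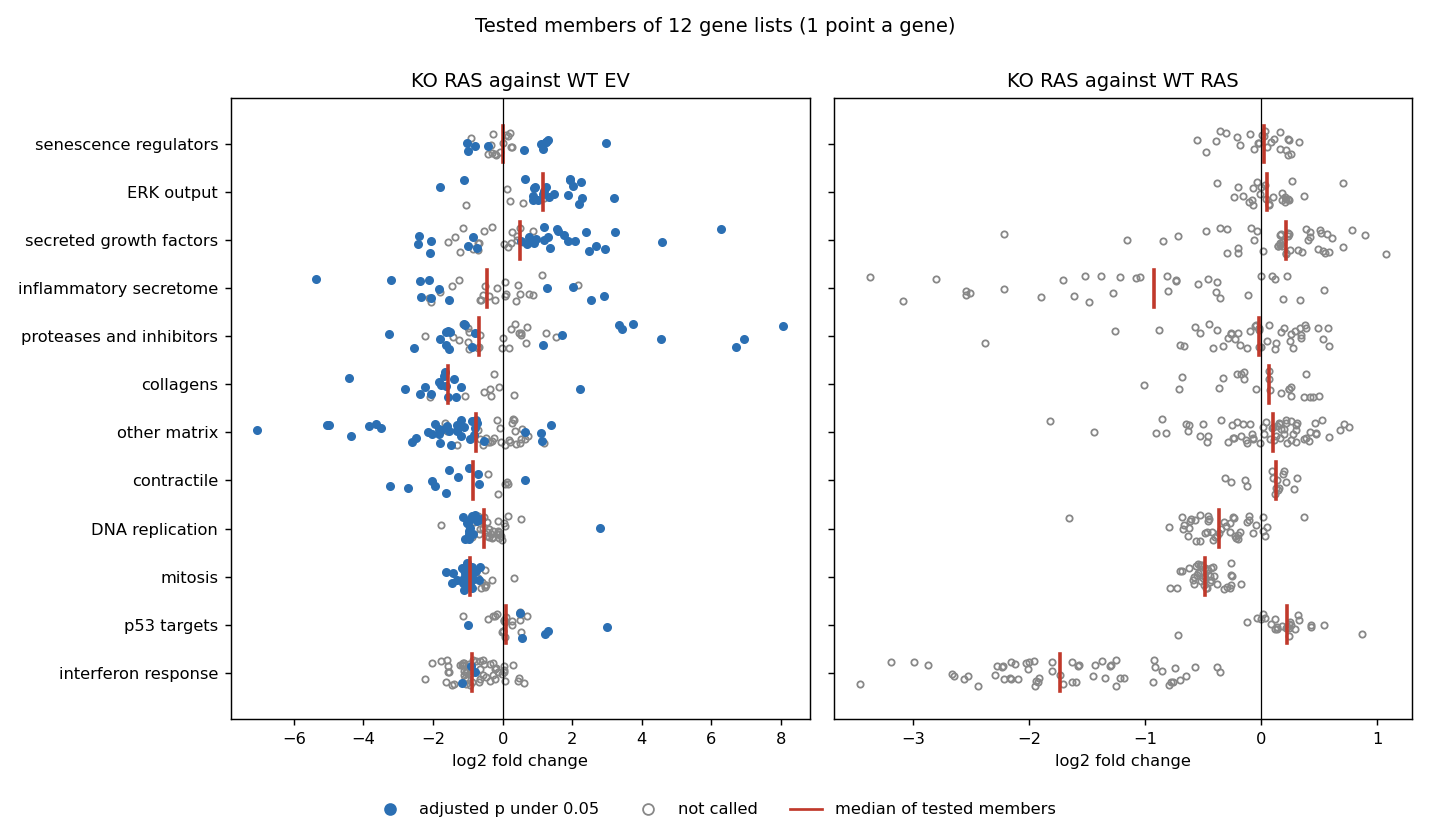
Log2 fold change of each tested member of 12 gene lists (horizontal axis, log2 scale; 1 point a gene) in KO RAS against WT EV and in KO RAS against WT RAS; filled points passed an adjusted p of 0.05 and red bars are medians. Collagens (median -1.58), contractile and mitosis genes sit left of 0 and ERK output (1.17) right of 0 against WT EV, and interferon response genes (median -1.73) lie left of 0 against WT RAS, where no list member was called.

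Mitosis genes were lower in KO RAS cells. Of 40 mitosis genes tested, 27 were called lower in KO RAS than in WT EV (67.5%, against 8.56% of all genes) and none higher. The median log2 fold change was -0.94, and 39 of 40 had a negative value. Mki67, the proliferation antigen gene, was 94.0, 152.2 and 105.2 CPM in WT EV and 32.8, 35.3 and 46.3 CPM in KO RAS (-1.62, SE 0.20, adjusted p = 0.000907). The mitotic kinesin gene Kif11 was 29.9, 34.95 and 32.3 CPM in WT EV and 13.5, 9.20 and 13.6 CPM in KO RAS (-1.42, SE 0.21, adjusted p = 0.0022). Nusap1, a spindle protein (-1.45, adjusted p = 0.00595), the separase gene Espl1 (-1.32, adjusted p = 0.00373) and the topoisomerase gene Top2a (-1.12, adjusted p = 0.00102) were called too, while Cdk1, the main mitotic kinase, was not (-0.61, SE 0.27, adjusted p = 0.155). The count of 27 was 18 without KO RAS replicate 3, 16 without KO RAS replicate 2 and 39 with the block (97.5%, against 20.4% of all genes). The summed mitosis level of KO RAS replicate 3, 651.4 CPM, lay between those of the other KO RAS libraries (751.2 and 516.4 CPM).

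Start regions of mitotic genes often hold the CHR element, a site for the DREAM complex, which holds these genes down in arrested cells. The regions of Kif11 (chr19:37376132-37376431, plus strand) and Top2a (chr11:99024140-99024439, minus strand; both RefSeq, GRCm38.p6, 5′ to 3′ along the gene) are shown as windows that hold it, from genes that were called lower, with capitals on TTTGAA or its reverse complement.
Kif11: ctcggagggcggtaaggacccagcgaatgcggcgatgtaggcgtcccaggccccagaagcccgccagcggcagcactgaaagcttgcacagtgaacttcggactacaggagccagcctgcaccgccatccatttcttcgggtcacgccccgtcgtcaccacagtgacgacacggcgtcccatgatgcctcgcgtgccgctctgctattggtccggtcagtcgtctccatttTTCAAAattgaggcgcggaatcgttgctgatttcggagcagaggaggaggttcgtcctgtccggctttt
Top2a: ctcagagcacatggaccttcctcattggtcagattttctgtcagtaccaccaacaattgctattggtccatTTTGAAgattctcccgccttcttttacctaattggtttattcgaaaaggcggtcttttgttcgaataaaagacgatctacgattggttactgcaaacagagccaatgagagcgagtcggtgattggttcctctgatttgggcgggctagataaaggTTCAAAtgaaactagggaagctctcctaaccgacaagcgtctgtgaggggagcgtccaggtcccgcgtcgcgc
The motif starts 19 bases before the start of Kif11, and 179 and 23 bases before that of Top2a. It was found in 24 of 33 mitosis promoters of the table (72.7%), in 18.1% of all promoters and in 11.8% of those of tested genes, and among the latter in 15.8% of those called lower and in 10.7% of those called higher. The window of Nusap1, which was called lower too, held no match.

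Replication genes moved less. Of 45 tested, 13 were called lower in KO RAS than in WT EV (28.9%, against 8.56% of all genes) and 1 higher (2.22%, against 9.55%). The median log2 fold change was -0.53, and the block gave 26 lower (57.8%, against 20.4%). The helicase subunit genes Mcm3 (45.2, 42.9 and 37.8 CPM in WT EV, 25.2, 16.4 and 17.8 CPM in KO RAS; -1.08, SE 0.23, adjusted p = 0.0121) and Mcm5 (-0.97, adjusted p = 0.0428), the cyclin A2 gene Ccna2 (-1.15, adjusted p = 0.0211) and the polymerase gene Pola1 (-0.96, adjusted p = 0.00392) were lower. E2f8, a repressor of the E2F family, was the member called higher (9.47, 11.48 and 8.80 CPM in WT EV, 56.3, 85.0 and 65.7 CPM in KO RAS; 2.80, SE 0.23, adjusted p = 0.000133). The 13 lower calls became 7 without WT EV replicate 1, 5 without WT EV replicate 2, 4 without KO RAS replicate 2 and 8 without KO RAS replicate 3. Mcm3 lost its call without KO RAS replicate 2 (adjusted p = 0.057), Mcm5 without any library but WT EV replicate 3 (from 0.0634 to 0.147), and Ccna2 without WT EV replicate 1 or 2 or KO RAS replicate 2 or 3 (from 0.051 to 0.0622).

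In WT RAS against the same WT EV libraries, 4 mitosis and 0 replication genes were called lower (with medians of -0.43 and -0.17). Between KO RAS and WT RAS themselves all 40 mitosis genes had a negative log2 difference, with a median of -0.48; 17 had an unadjusted p under 0.05 and none was called, and 2 were called with the block. Of the replication genes 40 of 45 were negative, with a median of -0.36, none called, 10 at an unadjusted p under 0.05 and 2 called with the block. Within litters the mitosis median of KO RAS minus WT RAS was -0.47 for replicate number 1, -0.75 for number 2 and -0.11 for number 3, where 40, 40 and 29 of 40 genes were lower. The lower level was thus found in all litters against WT EV (39 of 40 genes in each) and was smallest in litter 3 against WT RAS.

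**Figure D3:**
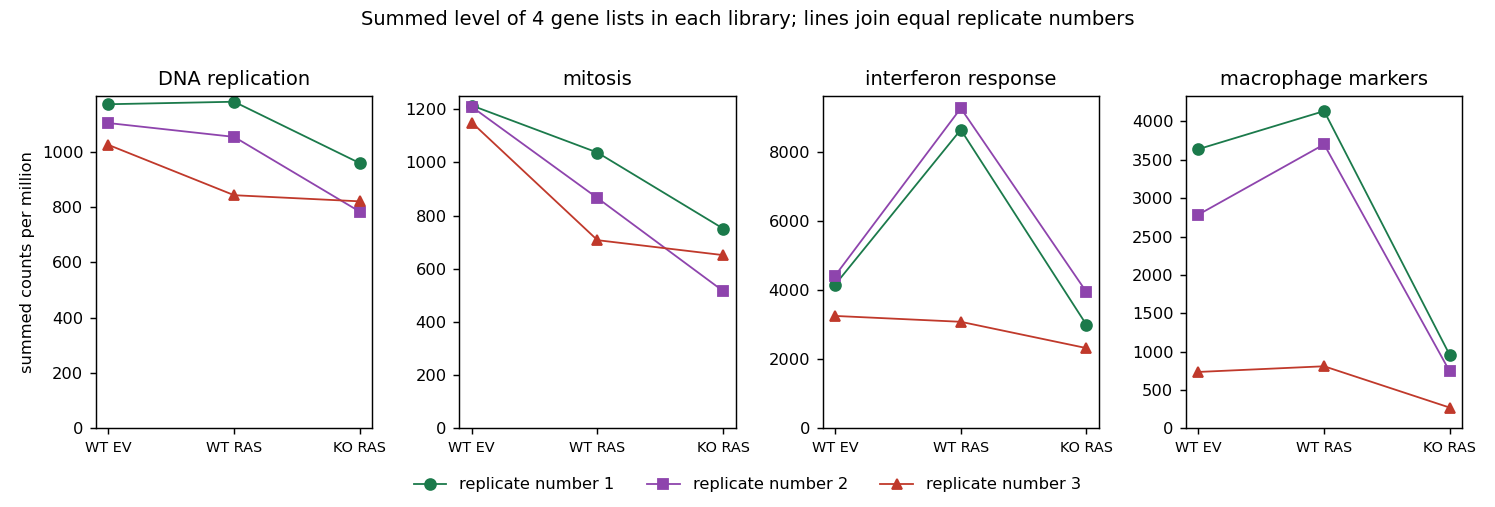
Summed CPM of DNA replication, mitosis and interferon response genes and of macrophage markers in the 9 libraries of the S6K1 series, by group; lines join libraries of 1 replicate number. Mitosis sums go from 1150 to 1214 CPM in WT EV to 516.4 to 751.2 CPM in KO RAS, and the macrophage and interferon sums are lowest in KO RAS for each replicate number.

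Inflammatory genes were called lower more often than higher. Of 34 tested genes, 4 were called higher in KO RAS than in WT EV (11.8%, near the 9.55% of all genes) and 8 lower (23.5%, against 8.56%), with a median log2 fold change of -0.46. With the block 7 were higher (20.6%, against 20.7% of all genes) and 14 lower (41.2%, against 20.4%). The counts without KO RAS replicate 3 were 4 higher and 7 lower, and without KO RAS replicate 2 only 4 were lower. The prostaglandin synthases led the genes that were higher: Ptges was 16.8, 15.5 and 21.4 CPM in WT EV and 114.4, 175.4 and 113.4 CPM in KO RAS (2.91, SE 0.26, adjusted p = 0.000184), and Ptgs2, encoding COX-2, had a log2 fold change of 2.02 (adjusted p = 0.00126). The alarmin gene Il33 (2.53, adjusted p = 0.00439) and its receptor gene Il1rl1 (1.29, adjusted p = 0.0298) were higher as well. The chemokine genes Cxcl15 (-5.37, adjusted p = 0.00125), Cxcl14 (-3.21, adjusted p = 0.00172) and Cxcl16 (-2.35, adjusted p = 0.0157) and the complement gene C3 (-2.36, adjusted p = 0.0133) were lower. Il1rl1 was not called without WT EV replicate 2 or 3 or KO RAS replicate 1 or 2 (adjusted p from 0.0608 to 0.0985), C3 and Cxcl16 not without KO RAS replicate 2 (0.0577 and 0.0684), and Cxcl16 not without KO RAS replicate 3 (0.0519). Il6, the interleukin often used as a marker of the secretome, was 3.13, 2.09 and 4.40 CPM in WT EV and 2.001, 1.53 and 3.17 CPM in KO RAS, with overlapping groups (-0.51, adjusted p = 0.393), and Il1a, Il1b and Csf2 were too low to be tested.

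Ccl2, the monocyte attractant, was 165.8, 106.9 and 35.5 CPM in WT EV, 601.0, 647.0 and 184.4 CPM in WT RAS and 227.6, 299.0 and 151.0 CPM in KO RAS. Its log2 fold change of 1.14 against WT EV (SE 0.58) was not called (adjusted p = 0.22), and KO RAS lay below WT RAS in each litter (difference -1.08, 95% interval -2.38 to 0.22; adjusted p = 0.0768 with the block). All 10 CC chemokines were lower in KO RAS than in WT RAS by point value, 7 of them at an unadjusted p under 0.05. Ccl3, Ccl4 and Ccl9 differed from WT RAS by -3.37, -3.09 and -2.54 on the log2 scale and were called with the block only (adjusted p = 2.9e-05, 0.00121 and 2.9e-05), while against WT EV none of the 3 was called. Over the 34 genes the median difference from WT RAS was -0.93; 12 had an unadjusted p under 0.05, none was called, and 11 were called lower with the block.

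Of the 12 lists, the interferon response genes held the most blocked calls between KO RAS cells and RAS cells with S6K1. Of 59 tested, 3 were called lower in KO RAS than in WT EV (5.08%, against 8.56% of all genes; 2 without KO RAS replicate 3) and none higher (median -0.89), and the block gave 33 lower (55.9%, against 20.4%). Those 3 were Ifi27 (-1.15, adjusted p = 0.0159), the DNA sensor gene Cgas (-0.91, adjusted p = 0.0233) and the transcription factor gene Irf1 (-0.80, adjusted p = 0.0147), and each of the 3 lost its call without at least 1 library: Irf1 without WT EV replicate 2 (adjusted p = 0.0564), Ifi27 without KO RAS replicate 2 or 3 (0.0622 and 0.0544) and Cgas without WT EV replicate 2 or 3 or KO RAS replicate 1 or 2 (from 0.0546 to 0.0882). In WT RAS against WT EV 1 was called higher and the median was 0.96. Isg15, a ubiquitin-like antiviral protein, was 78.9, 108.3 and 47.9 CPM in WT EV, 256.6, 259.6 and 27.9 CPM in WT RAS and 24.9, 82.0 and 8.25 CPM in KO RAS. The WT RAS libraries of litters 1 and 2 were high, that of litter 3 was not, and KO RAS was below both other groups in every litter. Against WT RAS all 59 genes were negative (median -1.73), 51 had an unadjusted p under 0.05, none was called, and 51 were called lower with the block. Leaving out all 3 libraries with replicate number 3 gave 19 called lower without the block, with a median of -1.91.

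The macrophage markers were lower in KO RAS as well. In WT RAS against WT EV their median log2 fold change was 0.07, against 0.96 for the interferon genes. All 20 were lower in KO RAS than in WT EV (median -2.21), 6 were called (among them Csf1r, the CSF1 receptor gene, at -2.44 and Adgre1, the F4/80 gene, at -2.41) and all 20 were called with the block; against WT RAS all 20 were negative (median -2.22), none was called and 19 were called with the block. Lyz2, the macrophage lysozyme gene, was 1528, 1127 and 292.5 CPM in WT EV and 459.0, 419.1 and 140.5 CPM in KO RAS. The 6 calls became 1 without WT EV replicate 1, WT EV replicate 2, KO RAS replicate 1 or KO RAS replicate 3, and 0 without KO RAS replicate 2. The WT RAS sums of the markers were 4135, 3701 and 808.9 CPM. The part that these cells had in the chemokine and interferon values was not tested. The sums of the interferon genes were 4163, 4425 and 3257 CPM in WT EV, 8654, 9276 and 3087 CPM in WT RAS and 3001, 3951 and 2325 CPM in KO RAS.

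Some epithelial genes were higher in the RAS cells of either genotype. Of 8 epithelial markers only 4 could be tested, and 3 were at or under 3 reads in all KO RAS libraries. The 4 were called higher in KO RAS than in WT EV, also without KO RAS replicate 3, at a median log2 fold change of 4.64. A gene as low in WT EV as Cldn4 passes the filter for tested genes only through the RAS libraries, so its direction was fixed beforehand. The sum of the 8 genes, much of it Krt18, was 5.13 to 10.3 CPM in WT EV, 120.9 to 157.1 CPM in WT RAS and 108.2 to 195.4 CPM in KO RAS. Krt18, a simple-epithelium keratin gene, was 9.12, 5.59 and 4.40 CPM in WT EV and 159.3, 129.4 and 90.1 CPM in KO RAS. Cldn4, a tight junction claudin gene, was 0.139, 0.298 and 0.366 CPM in WT EV, 7.26, 6.46 and 12.2 CPM in WT RAS and 28.4, 22.8 and 13.8 CPM in KO RAS (6.33 against WT EV, adjusted p = 0.000103; 1.32 against WT RAS, block-adjusted p = 0.04). The epithelial cadherin gene Cdh1 was at most 0.766 CPM in every library of the series and could not be tested.

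Other genes at the top of the comparison included several that were all but silent in WT EV. Nptx1, encoding a neuronal pentraxin, was 0.835, 1.64 and 1.19 CPM in WT EV and 210.1, 403.6 and 228.1 CPM in KO RAS (log2 fold change 7.84, SE 0.44, adjusted p = 7.74e-05). Plet1, Add2, Csn3 and Nefl had 2, 2, 5 and 5 reads in all WT EV libraries together, and their read ratios were 636 (95% interval 176 to 5260), 438 (121 to 3620), 357 (153 to 1100) and 210.0 (89.7 to 648), covering counting error only. Csn3, the kappa-casein gene, was 4.78, 4.83 and 24.8 CPM in WT RAS and 48.1, 49.4 and 40.8 CPM in KO RAS, above WT RAS in each litter (2.004, 95% interval 0.74 to 3.27; block-adjusted p = 0.0164). Lgr5, encoding an R-spondin receptor (-5.37, adjusted p = 0.000524), the growth factor gene Ptn (1787, 1902 and 910.3 CPM in WT EV, 33.0, 53.8 and 77.6 CPM in KO RAS; -4.80, adjusted p = 0.000307) and Gucy1a1, a soluble guanylate cyclase subunit gene (-4.51, adjusted p = 0.00399), were among the lowest.

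Tested directly, KO RAS and WT RAS cells differed in 1 of 14036 genes (0.00712%), with 963 at an unadjusted p under 0.05; DESeq2 called 63 genes. None of the 2542 genes called against WT EV was called here. Rps6kb1 was among those 2542, so the test without the block did not call even the targeted gene. With the litter as a block 583 genes were called (4.15%), 506 lower in KO RAS (3.61%) and 77 higher (0.549%). By list, those lower calls took in 51 of 59 interferon genes, 19 of 20 macrophage markers, 11 of 34 inflammatory genes, 4 of 44 proteases and inhibitors, 1 of 23 collagens, and none of the senescence regulators, ERK output or contractile genes. Without the 3 libraries of replicate number 3, 381 genes were called, 326 of them lower. The gene called without the block was Dhx40, an RNA helicase gene on chromosome 11 at 86768849 to 86807877. It lies close to the targeted gene Rps6kb1 (86498869 to 86544885, both GRCm38). Whether that position had a part in the call was not tested. Dhx40 was 70.2, 68.5 and 68.7 CPM in WT EV, 125.6, 111.6 and 125.7 CPM in WT RAS and 55.0, 56.3 and 60.0 CPM in KO RAS. The WT RAS values lay above both other groups, and KO RAS was below WT EV by a log2 fold change of -0.28 (adjusted p = 0.083); the difference from WT RAS was -1.08 (SE 0.10, adjusted p = 0.0168).

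A list of RAS-responsive genes that used none of these libraries came from the wild-type cells of the S6K1/S6K2 series, where 3646 of 13881 genes (26.3%) were called, 1880 genes higher with RAS (13.5%) and 1766 lower (12.7%). Of the 1845 raised genes tested here, 1745 (94.6%) were higher in KO RAS than in WT EV, 984 (53.3%) were called higher against the 9.55% over all genes, and 2 were called lower; the median log2 fold change was 0.71. Of the 1705 lowered genes, 1606 (94.2%) were lower, 688 (40.4%) were called lower against 8.56%, and none was called higher; the median was -0.57. The same lists in WT RAS against WT EV, which shares the WT EV libraries, had medians of 0.61 and -0.52, with 782 (42.4%) and 575 (33.7%) called. The median difference between KO RAS and WT RAS was 0.11 over the raised genes and -0.02 over the lowered genes. With the block, 28 raised genes were called higher in KO RAS than in WT RAS and 28 lower (1.52% each, against 0.549% higher and 3.61% lower over all genes), and of the lowered genes 16 were called higher (0.938%) and 48 lower (2.82%).

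RAS cells without both kinases shared many called genes with KO RAS, each against its own WT EV libraries. Over 13550 genes tested in both series, 992 of the 1304 genes called higher in KO RAS were also called higher in DKO RAS, which is 76.1% of the KO RAS list and 55.7% of the 1782 of the DKO RAS list. Of 1145 genes called lower in KO RAS, 745 were shared (65.1% of that list and 44.1% of the 1691 of the other), and 1 was called in the opposite direction. Across genes Pearson's r of the log2 fold changes was 0.852 and Spearman's rho 0.748, as a description, since genes are not independent replicates. Over all genes DKO RAS differed from its WT EV in 3565 (25.7%), 1812 higher (13.1%) and 1753 lower (12.6%), while a test of the KO RAS effect minus the DKO RAS effect called 1 of 14483 genes (0.0069%). By list, in DKO RAS 19 of 26 ERK output genes were higher, 18 of 24 collagen genes lower, 16 of 40 mitosis genes lower and 39 of 57 interferon genes lower. In that series the interferon sums were 4671, 4041 and 3731 CPM in WT EV and 4442, 2134 and 2348 CPM in WT RAS. In DKO RAS they were 2138, 2130 and 2656 CPM. The mitosis sums were 1014, 2288 and 1268 CPM in WT EV and 1153, 638.2 and 502.8 CPM in WT RAS. In DKO RAS they were 639.4, 642.4 and 893.7 CPM. In both lists DKO RAS thus overlapped the WT RAS of its own series. Of 16 contractile genes 3 were called lower and 2 higher in DKO RAS (median -0.41). Their summed level was 4740, 5678 and 10780 CPM in that WT EV and 11990, 8513 and 8846 CPM in DKO RAS. In the S6K1 series it was 12380 to 15010 CPM in WT EV and 11060 to 14830 CPM in KO RAS. Of 44 proteases and inhibitors 15 were higher and 13 lower in DKO RAS, of 46 growth factors 16 and 6, and of 29 inflammatory genes 7 and 8. Cdkn2a had a log2 fold change of 1.24 (adjusted p = 0.0017) and Col1a1 of -2.30 (adjusted p = 0.00038) there. Dhx40 was 57.9, 82.8 and 76.0 CPM in the WT EV, 120.8, 129.4 and 159.5 CPM in the WT RAS and 72.5, 67.2 and 62.8 CPM in the DKO RAS libraries of that series, so that WT RAS was again the high group.

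**Figure D4:**
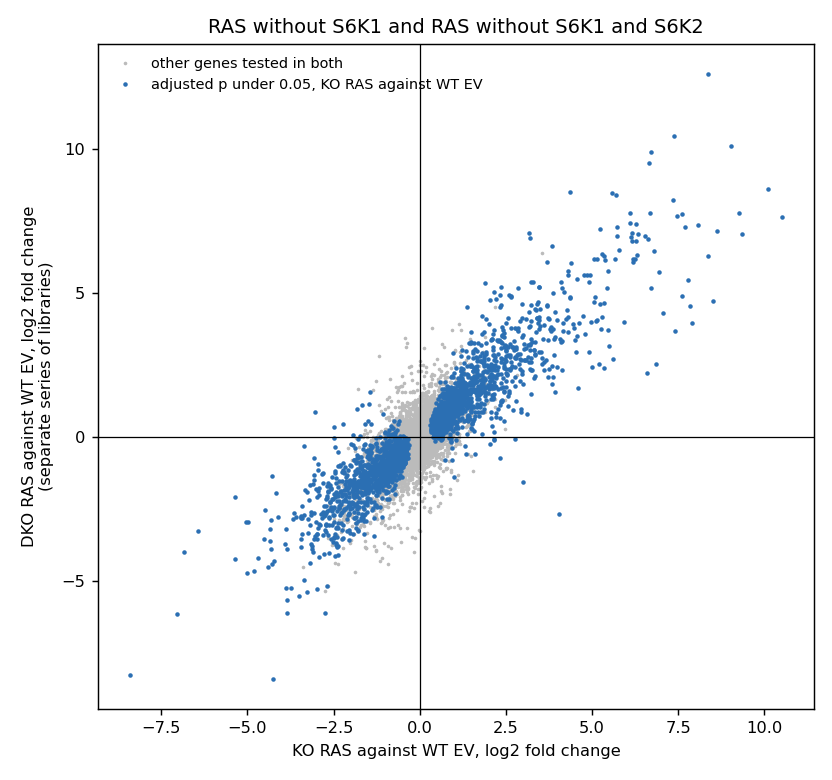
Log2 fold change of KO RAS against WT EV (horizontal axis) and of DKO RAS against the WT EV libraries of the separate series (vertical axis) for 13550 genes, 1 point a gene; blue points were called in KO RAS. Of the genes called higher in KO RAS 98.1% lie above 0 on the vertical axis, and of those called lower 96.9% lie below 0; over all 13550 genes 76.3% had the same sign on both axes.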

How the data were processed

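RNA was sequenced (stranded mRNA libraries, single-end reads) from 18 fibroblast cultures, 3 in each of 6 groups, which the sample labels give. The deposited files hold read counts per gene, unnormalized, as the authors made them. The submitters' processing notes name CASAVA, STAR 2.7.1a, DESeq2 1.28.1 and mm10, whereas the study's methods name another aligner and an older build; the coordinates given here are those of RefSeq on GRCm38, and the deposited identifiers paired with symbols carried 99.14% of all counts. Total counts ran from 8319445 to 14402442 per library over both series; intervals of read ratios cover counting error only.

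The 9 libraries of the S6K1 series were fitted together in edgeR 4.0.16 (R 4.3.3): genes kept by filterByExpr (minimum count 10), TMM scaling, group means only, quasi-likelihood F test, Benjamini-Hochberg adjustment. The S6K1/S6K2 series was fitted separately, and the difference between KO RAS and DKO RAS effects over all 18 libraries. Alternatives were DESeq2 1.42.0, other scalings and filters, other sets of libraries, a replicate block and single libraries left out. The script was tested on simulated counts. Replicate numbers were taken to pair the S6K1 series, which the labels do not state. Deviations from the WT EV and KO RAS means correlated at 0.683, 0.535 and 0.522 within numbers and at -0.517 to -0.0995 across them. Deviations from a group mean cancel within the group, so negative values across numbers follow from positive ones within numbers and add no support. Labels do not say whether each library is a separate culture of 1 embryo. For its fibroblast assays the study gives the replicates as coming from different embryos, but it does not state this for the sequenced libraries. The p-values thus measure the spread between these samples.

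The members and gene lists were chosen with earlier results of these data known, and no list is independent support. Genes named in the text were the up to 10 with the highest and the 10 with the lowest log2 fold changes among the called genes whose mean reached 100 counts and whose groups did not overlap, a fixed set of senescence and secretome genes, up to 4 called genes in each direction and up to 3 with the smallest p against WT RAS per list, and the members of counts of 5 or fewer; a gene of the fixed set is not reported here. The marker genes Lyz2, Csf1r, Adgre1, Krt18 and Cdh1, Rb1 and the interferon gene Isg15 were added after their values were seen. Promoters (27025 of 300 bases, the first listed per gene) came from RefSeq. Figures were drawn with matplotlib.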

Additional observations from a re-analysis of the deposited data

Results flagged for a closer look

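The difference between the KO RAS effect and the DKO RAS effect, each against its own WT EV libraries, was tested gene by gene over the 18 libraries, and 1 of 14483 genes passed (0.0069%), with 1092 at an unadjusted p under 0.05. It was Rps6kb2, the gene deleted in the DKO cells only, with a log2 difference of 3.23 (SE 0.20, adjusted p = 5.1e-07): it was 24.1, 19.9 and 22.8 CPM in KO RAS and 2.68, 3.04 and 2.80 CPM in DKO RAS. DESeq2 called 61 genes in this test. The 2 series also differ in their libraries and litters, so the test compares them together with the genotype.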

How the results depend on the processing

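With replicate number as a block, 5766 genes were called for KO RAS against WT EV, 583 for KO RAS against WT RAS, 5085 for WT RAS against WT EV and 22 for the KO RAS effect minus the DKO RAS effect; the block moved the other counts by less than 1.5 times. In the S6K1/S6K2 series same-numbered libraries correlated at 0.37, 0.291 and 0.321 for WT RAS against WT EV and at 0.18, 0.289 and -0.13 for DKO RAS against WT EV, so that the numbers pair the former comparison and not the latter. KO RAS against WT RAS gave 63 genes with DESeq2, 108 without a filter, 0 with only the 6 compared libraries, 4 with all 18 libraries and, in a setting chosen after the data were seen, 381 without the libraries of replicate number 3. The difference of the KO RAS and DKO RAS effects gave 61 genes with DESeq2 and 94 without a filter. The cause of these changes was not tested. Leaving out single libraries gave 1325 to 2139 genes for KO RAS against WT EV, 0 to 22 for KO RAS against WT RAS (22 without WT RAS replicate 3), 1043 to 1818 for WT RAS against WT EV, 1999 to 4044 for DKO RAS against WT EV, 2050 to 4199 for WT RAS in that series and 1 to 71 for the difference of effects (71 without WT EV replicate 3 of the S6K1/S6K2 series). For KO RAS against WT EV the other alternatives stayed within 1.5 times, from 2029 genes (at least 10 counts in every library) to 3171 (DESeq2). Of 105 named genes called there, 74 were called under every alternative and none changed direction; Mmp13, not called, ran from -0.97 (without WT EV replicate 2) to 0.11 (without WT EV replicate 3). With 3 libraries a group, a gene that was not called is not shown to be equal between groups.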
